A study of Mus musculus with 12 samples.

Results

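Hormone without its receptor was compared with receptor without its hormone: condylar fibrocartilage of estrogen receptor alpha knockout (ERalphaKO) mice given 17β-estradiol (E2) against that of wild-type (WT) mice given placebo. The libraries were taken by their titles, 3 labelled KO E2 and 2 labelled WT Plb, which makes 5 of the 12 libraries of the series. All 14832 genes with enough counts to be tested, of 23284 in the table, were examined. The tissue is the mandibular condylar fibrocartilage, the layer over the joint surface of the lower jaw, taken with all of its cells. All animals, in these groups and the others, were C57BL/6 females that had been ovariectomized at 16 weeks of age, which removes the ovarian source of estrogen, and were sampled at 17 weeks. The ERalphaKO E2 animals carried for that 1 week an estradiol pellet of 0.01 mg made to release over 60 days, and the WT placebo animals a placebo. The other 2 groups, WT E2 (n = 3) and ERalphaKO placebo (n = 4), had hormone and receptor together, and neither. The knockout allele, and the cells in which it is deleted, are not named in the labels. Separate animals are not stated for the replicates, and p-values therefore measure only how these samples spread, which may be technical.

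Estrogen receptor alpha, encoded by Esr1, is a nuclear receptor that binds estradiol and then, as a dimer, binds DNA at paired GGTCA motifs or joins other transcription factors, and recruits coactivators or corepressors. A receptor without hormone is not always silent, because growth factor signalling can activate it and it can hold corepressors at some genes. Estradiol also has the receptors Esr2 and Gper1, so hormone without receptor alpha is not the same as no hormone. The jaw joint is a tissue where estrogen action has long been studied, because its disorders are more common in women.

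Library totals ran from 9696434 counts in ERalphaKO E2 replicate 2 to 28750636 in WT placebo replicate 2. At these depths 3 counts stood at 0.315 CPM, the count scaled to the library's total, in the former and at 0.110 CPM in the latter, and these limits cover counting error only. Defining genes of fibrous tissue and cartilage were present in every library: Col1a1, the main collagen of fibrous tissue and bone, ran from 39742 to 43587 CPM over the 5 libraries, and Acan, the cartilage proteoglycan aggrecan, from 920 to 1962 CPM. Markers of other cells were uneven within both groups. Summed CPM of the 20 skeletal muscle markers tested was 17.8 and 3685 in WT placebo replicates 1 and 2, and 83.9, 69.6 and 21.5 in ERalphaKO E2 replicates 1 to 3. Summed CPM of the 13 granulocyte markers tested was 900 and 74.0 in WT placebo, and 7288, 18.5 and 705 in ERalphaKO E2. Summed CPM of the 11 lymphocyte markers tested was 15 and 11.4 in WT placebo, and 139, 16.1 and 48.8 in ERalphaKO E2. In bulk tissue, fewer cells of a type and less RNA per cell cannot be told apart.

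The WT placebo libraries held 17.5 and 14.2 CPM of Esr1, and ERalphaKO E2 replicates 1 to 3 held 5.66, 5.78 and 4.55 CPM. All ERalphaKO E2 libraries lay below both WT placebo libraries. The difference in the edgeR quasi-likelihood fit was -1.58 ± 0.22 on the log2 scale (SE), a 2.98-fold lower level with a 95% interval of 2.12 to 4.19. Its adjusted p of 0.167 over all genes did not pass 0.05. With DESeq2 the same difference had an adjusted p of 1.87e-06. Transcript was counted in all libraries labelled KO, and gene-level counts do not show which part of the gene it covers. WT E2 libraries held 10.6, 8.52 and 12 CPM, between the levels of WT placebo and ERalphaKO E2. Of the 10 tested genes nearest to Esr1 on its chromosome, 5 on each side, none passed the adjusted test. Fbxo5, an inhibitor of the anaphase-promoting complex, had the smallest p of these neighbours (log2 difference 0.71, unadjusted p = 0.0409). In CPM its ERalphaKO E2 replicate 2 lay between both WT placebo libraries, so the groups overlapped. Syne1, a very large nuclear envelope protein next to Esr1, was at 296 and 425 CPM in WT placebo and at 469, 367 and 447 CPM in ERalphaKO E2, and these ranges overlapped.

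Across all genes few differences passed the test. Of 14832 genes tested, 1 (0.00674%) passed an adjusted p of 0.05 in edgeR, A2m, which was lower in ERalphaKO E2, and none was higher. At an unadjusted p under 0.05, 392 genes (2.64%) were higher and 511 (3.45%) lower in ERalphaKO E2, 903 (6.09%) in all. With single libraries left out these counts ran from 193 (without WT placebo replicate 1) to 577 (without ERalphaKO E2 replicate 2) and from 238 (without ERalphaKO E2 replicate 1) to 775 (without ERalphaKO placebo replicate 3). DESeq2 called 14 higher and 10 lower. The 95% interval of the difference lay within 2-fold either way for 11155 genes, 75.2% of those tested. Among the 9835 genes with a mean of at least 10 CPM this share was 92.4%. For the remaining genes the interval reached or lay beyond 2-fold in at least 1 direction, or could not be given. A gene that missed the threshold was thus not shown to be equal. The median log2 difference was 0.004. In the same fit, 68 genes (0.458%) passed for WT E2 against WT placebo and 163 (1.1%) for ERalphaKO E2 against WT E2. These comparisons share libraries with each other and with the main comparison, and they set 3 libraries against 2 or against 3.

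**Figure D1:**
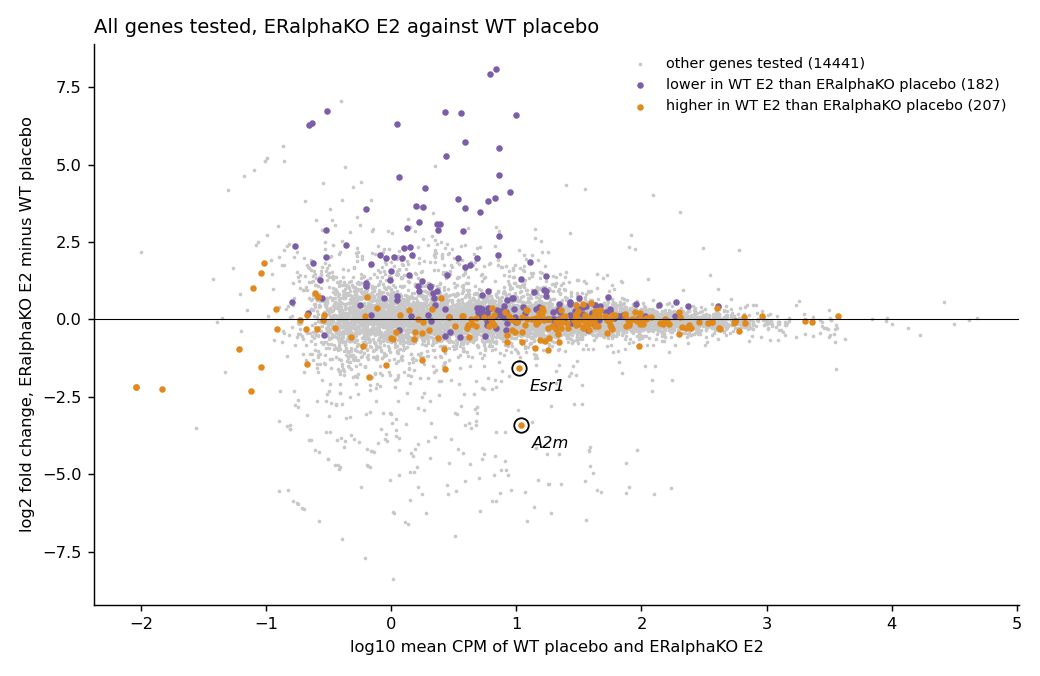
Log2 fold change of ERalphaKO E2 against WT placebo (y axis) over the log10 mean CPM of both groups (x axis), 1 point a gene, for 14830 of the 14832 genes tested (2 had no count in either group). Orange and purple points are genes higher or lower in WT E2 than in ERalphaKO placebo; A2m lies at -3.41 and Esr1 at -1.58, and many purple points of low level lie far above 0.

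A2m encodes alpha-2-macroglobulin, a secreted protein that traps proteases, among them those that degrade cartilage matrix. It was at 21.7 and 18.5 CPM in WT placebo and at 2.71, 1.89 and 1.12 CPM in ERalphaKO E2. The groups did not overlap. The difference was -3.41 ± 0.33 on the log2 scale (SE), 10.6-fold lower in ERalphaKO E2 with a 95% interval of 6.38 to 17.6 (edgeR, adjusted p = 0.0108). In WT E2 the 3 libraries held 137, 130 and 163 CPM, and in ERalphaKO placebo the 4 libraries held 1.86, 2.03, 0.852 and 1.97 CPM. A2m thus stood at 3 levels: highest with hormone and receptor, between with the receptor alone, and lowest in all 7 ERalphaKO libraries, with or without E2. On the log2 scale WT E2 was 2.84 above WT placebo, and ERalphaKO placebo differed from WT placebo by -3.59. ERalphaKO E2 differed from ERalphaKO placebo by 0.18 (edgeR adjusted p = 0.997), and these values share the WT placebo or ERalphaKO E2 libraries with the main comparison. The A2m call rested on the spread shared by all groups. With only the 5 libraries fitted its edgeR adjusted p was 0.584, and with the lymphocyte marker mean as a covariate it was 0.164. It also missed 0.05 without WT placebo replicate 1 (0.119) or 2 (0.0697), without WT E2 replicate 1 (0.0540), and without ERalphaKO E2 replicate 2 (0.0989) or 3 (0.0532). The log2 difference ran from -3.82 to -3.09 when single libraries were left out.

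**Figure D2:**
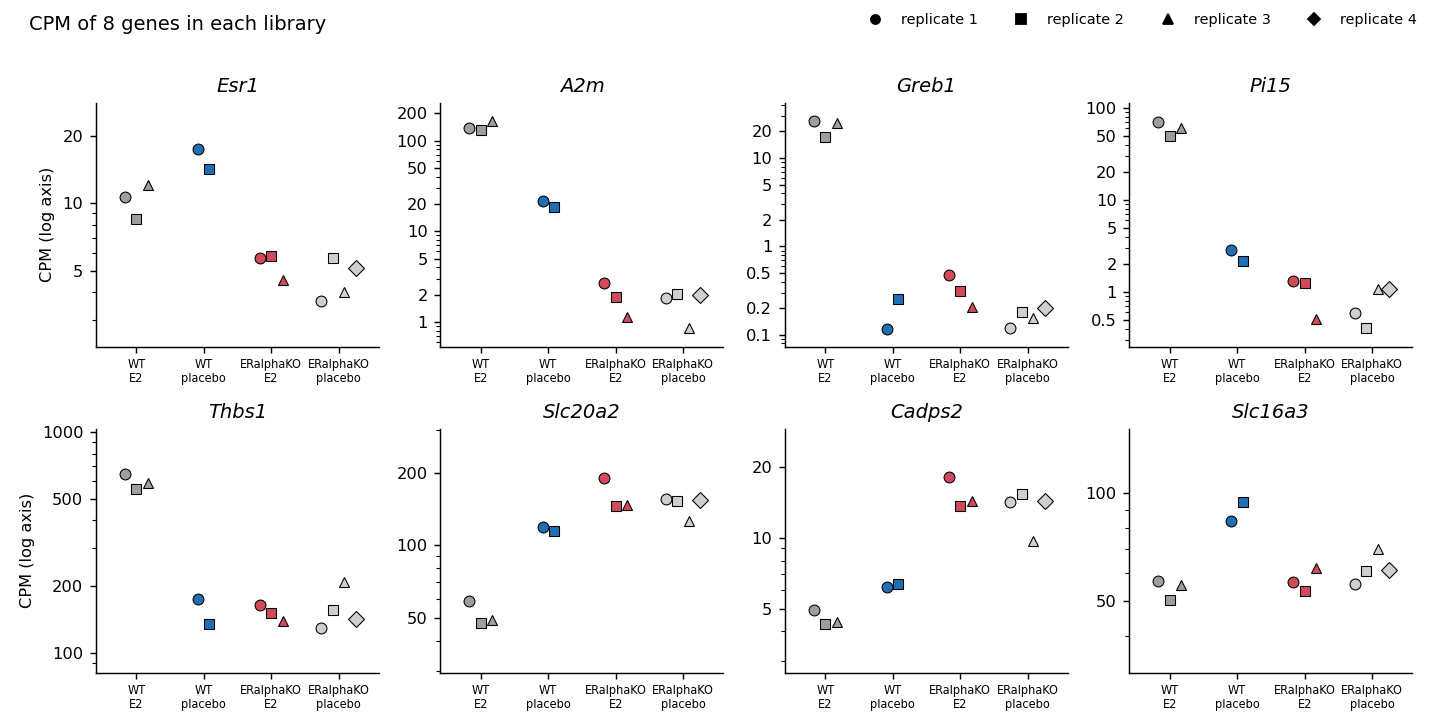
CPM on a log axis (y) of 8 genes in each of the 12 libraries, by group (x); each point is 1 library and its shape is the replicate number. A2m is at 18.5 to 21.7 CPM in WT placebo and at 1.12 to 2.71 CPM in ERalphaKO E2, while Thbs1 is at 135 to 175 CPM in WT placebo and at 139 to 165 CPM in ERalphaKO E2.

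To ask how far both states resemble each other at genes that depend on hormone and receptor together, a set was taken from the libraries not compared here. It held 390 genes (2.63% of those tested) that passed an adjusted p of 0.05 between WT E2 and ERalphaKO placebo: 208 (1.4%) higher and 182 (1.23%) lower in WT E2. The fit gives each gene 1 estimate of spread for both comparisons, so the choice and the description are not wholly independent. The median of the 208 higher genes in each library, set against their mean in ERalphaKO placebo on the log2 CPM scale, was 0.21 and 0.12 in WT placebo replicates 1 and 2. It was 0.09, 0.16 and 0.07 in ERalphaKO E2 replicates 1 to 3, and 1.08, 0.77 and 1.17 in the WT E2 libraries. WT placebo and ERalphaKO E2 libraries overlapped in this median, and all of them lay well below WT E2. On a scale from 0 at ERalphaKO placebo to 1 at WT E2, the median gene stood at 0.172 in WT placebo and at 0.095 in ERalphaKO E2. ERalphaKO E2 was nearer to WT placebo than to WT E2 for 204 of the 208 genes, beside 7406 of 14832 over all genes. WT E2 was among the groups that chose the 208 genes, which favours such a result.

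The median difference of these 208 genes between ERalphaKO E2 and WT placebo was -0.05 on the log2 scale, with quartiles of -0.28 and 0.10, beside 0.004 over all genes. For 146 of them (70.2%) the interval lay within 2-fold, beside 75.2% of all genes. At an unadjusted p under 0.05, 5 (2.4%) were higher and 23 (11.1%) lower in ERalphaKO E2, beside 2.64% and 3.45% of all genes. The libraries of the groups did not overlap, with ERalphaKO E2 lower, for 45 genes (21.6%), beside 13.2% of all genes tested. They did not overlap with ERalphaKO E2 higher for 21 (10.1%), beside 11.4%. Medians of the same genes were 0.89 for WT E2 against WT placebo and -0.96 for ERalphaKO E2 against WT E2. WT E2 helped to choose these genes, so the size of these 2 larger medians was partly given by the choice. The sign of the small median depended on 1 library: leaving out WT placebo replicate 1 gave 0.002, leaving out replicate 2 gave -0.108, and the set itself changed with each library left out. Without WT placebo replicate 1, 11 of 160 genes had an unadjusted p under 0.05 in either direction, beside 28 of 208.

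**Figure D3:**
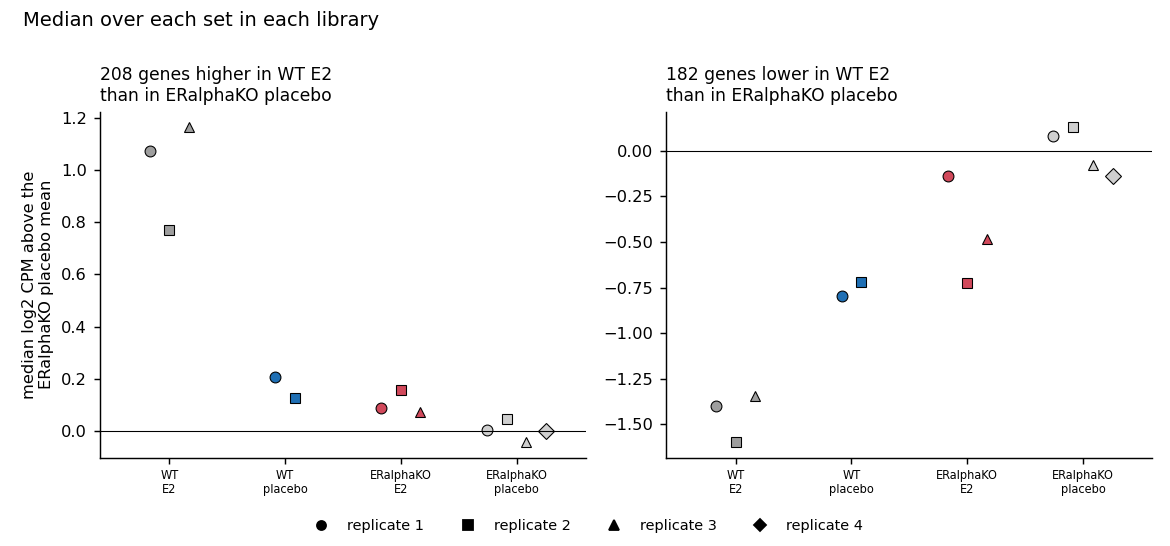
Median log2 CPM above the ERalphaKO placebo mean (y axis) over the 208 genes higher (left) and the 182 genes lower (right) in WT E2 than in ERalphaKO placebo, for each library by group (x axis). On the left the WT placebo and ERalphaKO E2 points lie between 0.07 and 0.21; on the right ERalphaKO E2 replicate 2 is at -0.73, beside -0.80 and -0.72 in WT placebo, and replicates 1 and 3 are at -0.14 and -0.48.

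Predicted genes among the 208 were not named, and others needed a mean of at least 1 CPM in WT E2 or ERalphaKO placebo. Libraries of these 2 groups also had to stand apart. Of such genes, the 10 with the largest differences between these groups were A2m, Greb1, Pi15, Trpc6, Myo5c, Sftpa1, Gbp8, Lgi2, Hcn4 and Ripk4. Greb1, whose protein binds the receptor as a cofactor in breast cells, was at 0.117 and 0.257 CPM in WT placebo and at 0.482, 0.315 and 0.204 CPM in ERalphaKO E2, against 26.3, 17.4 and 25.0 CPM in WT E2. The first 2 groups overlapped near the limit of detection, at 2 and 7 counts against 8, 3 and 4, and their log2 difference of 0.73 had a 95% interval of -0.26 to 1.71. WT E2 stood 6.81 above WT placebo on the log2 scale, far outside that interval. Greb1 was chosen with the WT E2 libraries, so this gap was partly given by the choice. Lgi2, a secreted leucine-rich repeat protein, had at most 2 counts in a WT placebo library and at most 6 in an ERalphaKO E2 library, against 14.9, 9.46 and 13.9 CPM in WT E2. Hcn4, the pacemaker channel, had at most 1 count in any of the 5 libraries, and Ripk4, a kinase of epithelial differentiation, at most 3. No fold is given for these 3 genes.

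Sftpa1, a lectin of lung surfactant, was at 0.587 and 0.549 CPM in WT placebo and at 0.482, 0.420 and 0.256 CPM in ERalphaKO E2 (log2 difference -0.58, 95% interval -2.40 to 1.24). Gbp8, an interferon-inducible GTPase, was at 0.939 and 0.440 CPM in WT placebo and at 0.964, 0.736 and 0.869 CPM in ERalphaKO E2 (0.37, -0.68 to 1.43). Both were far below WT E2, where Sftpa1 reached 25.2 to 89.9 CPM and Gbp8 15.6 to 29.3 CPM. Pi15 is a secreted peptidase inhibitor, Trpc6 a calcium-permeable channel and Myo5c an unconventional myosin of secretory cells. These 3 stood above ERalphaKO E2 in both WT placebo libraries, as Sftpa1 did at 10 and 15 counts against 8, 4 and 5. Pi15 was at 2.87 and 2.16 CPM in WT placebo and at 1.33, 1.26 and 0.511 CPM in ERalphaKO E2 (-1.32 ± 0.42, unadjusted p = 0.0102, adjusted p = 0.808 in edgeR). Trpc6 was at 4.46 and 2.60 CPM in WT placebo and at 2.05, 1.37 and 1.84 CPM in ERalphaKO E2 (-0.97 ± 0.37, unadjusted p = 0.0241). Myo5c was at 0.763 and 1.32 CPM in WT placebo and at 0.361, 0.315 and 0.204 CPM in ERalphaKO E2 (-1.85 ± 0.51, unadjusted p = 0.00398). None of these 3 passed adjustment in edgeR or DESeq2. For Pi15 and Myo5c all 7 ERalphaKO libraries lay below both WT placebo libraries, as for A2m, while ERalphaKO placebo replicate 3 held 2.83 CPM of Trpc6, above WT placebo replicate 2. Without WT placebo replicate 1 the Trpc6 difference was -0.54.

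Of these 10 genes, 6 matched a start in the RefSeq promoter table of GRCm38.p6, with 7 starts, each covering 250 bases before and 50 from the start. The shown sequences are those of Greb1, whose compared groups overlapped, and of Myo5c and Trpc6, whose compared groups did not, and capitals mark every GGTCA or TGACC, the motif of the receptor read on either strand. They are Greb1 at its upstream start (chr12:16800837-16801136, minus strand), Myo5c (chr9:75231764-75232063, plus strand) and Trpc6 (chr9:8543892-8544191, plus strand), each 5′ to 3′.
Greb1: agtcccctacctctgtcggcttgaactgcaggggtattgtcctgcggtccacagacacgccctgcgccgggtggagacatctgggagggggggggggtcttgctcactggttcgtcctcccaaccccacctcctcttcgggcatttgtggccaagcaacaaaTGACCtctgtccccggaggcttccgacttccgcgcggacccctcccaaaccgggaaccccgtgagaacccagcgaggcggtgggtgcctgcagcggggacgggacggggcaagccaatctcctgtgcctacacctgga
Myo5c: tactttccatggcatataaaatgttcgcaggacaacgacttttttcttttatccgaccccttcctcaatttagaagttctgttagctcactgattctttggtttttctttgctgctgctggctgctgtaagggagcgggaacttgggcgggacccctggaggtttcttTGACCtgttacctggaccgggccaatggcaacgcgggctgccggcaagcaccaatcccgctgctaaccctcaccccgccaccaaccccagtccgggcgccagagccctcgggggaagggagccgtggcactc
Trpc6: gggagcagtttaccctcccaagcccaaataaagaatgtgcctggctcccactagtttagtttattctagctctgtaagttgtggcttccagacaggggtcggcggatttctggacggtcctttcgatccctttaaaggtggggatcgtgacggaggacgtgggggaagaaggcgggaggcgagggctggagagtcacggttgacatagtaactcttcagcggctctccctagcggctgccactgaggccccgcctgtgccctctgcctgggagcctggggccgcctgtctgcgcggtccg
Greb1 and Myo5c each held 1 TGACC, 88 and 82 bases before the start, the other Greb1 start in the table held 2 GGTCA, and Trpc6 held no match in this window. Of the 7 starts 5 held the motif. It was in 40.5% of all 32851 starts in the table, in 46.6% of the 189 starts of genes higher in WT E2 than in ERalphaKO placebo and in 43.6% of the 163 starts of genes lower. The paired form, GGTCA followed after any 3 bases by TGACC, reads the same on both strands and contains the shorter motif; it was in 0.07% of all starts and in none of the starts of either group. A match is a stretch of letters and not a bound site. A2m and Pi15 had no entry in the table.

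Of the 208 genes, 23 had an unadjusted p under 0.05 and a lower level in ERalphaKO E2, and A2m alone passed adjustment in edgeR, while DESeq2 also called Esr1 and Myh10. The examples that follow were chosen after their values were seen. Aldh1a2, an enzyme that makes retinoic acid, was at 3.87 and 4.29 CPM in WT placebo, at 1.26, 1.47 and 1.33 CPM in ERalphaKO E2 and at 8.68, 4.47 and 8.04 CPM in WT E2 (-1.59 ± 0.38, unadjusted p = 0.00156). Myh10, the heavy chain of a non-muscle myosin, was at 59.5 and 62.5 CPM in WT placebo and at 45.2, 42.3 and 47.2 CPM in ERalphaKO E2, and at 78.9 to 93.7 CPM in WT E2 (-0.44 ± 0.09, edgeR adjusted p = 0.704, DESeq2 adjusted p = 0.0491). Its ERalphaKO placebo libraries ran from 42.6 to 48.1 CPM, the range of ERalphaKO E2. Sost, an osteocyte inhibitor of Wnt signalling, was at 149 and 95.9 CPM in WT placebo and at 68.2, 89.8 and 44.5 CPM in ERalphaKO E2, and Pth1r, the receptor of parathyroid hormone and its related peptide, at 687 and 675 against 434, 621 and 506 CPM. The groups of both genes stood apart by a small gap. Siglec1, a macrophage lectin, was at 11.3 and 9.60 CPM in WT placebo and at 6.50, 6.41 and 6.18 CPM in ERalphaKO E2, with 29.6 to 69.2 CPM in WT E2. In each of these genes both WT placebo libraries were above all ERalphaKO E2 libraries and below the lowest WT E2 library.

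Some other genes that E2 changed in WT had small differences between ERalphaKO E2 and WT placebo. They were taken from an earlier report of the same libraries and are grouped here by that small difference. Genes of that report whose groups stood apart, among them Slc20a2, Limch1 and Bdh1, are given further below. Thbs1, a matricellular glycoprotein, was at 175 and 135 CPM in WT placebo and at 165, 152 and 139 CPM in ERalphaKO E2, against 649, 551 and 587 CPM in WT E2. The log2 difference of the first 2 groups was -0.03 with a 95% interval of -0.45 to 0.39, and WT E2 stood 1.94 above WT placebo. Whrn, a PDZ scaffold protein, was at 29.6 and 28.7 CPM against 24.9, 29.6 and 31.3 CPM (-0.03, -0.40 to 0.35), with WT E2 1.71 above WT placebo. For both genes the 2 groups overlapped. The WT E2 difference lay outside the interval, but the genes were taken for that response and both differences share WT placebo. Gbp4, an interferon-inducible GTPase, was at 7.68 and 5.31 CPM in WT placebo and at 6.50, 4.42 and 5.78 CPM in ERalphaKO E2 (-0.20, -0.88 to 0.47), with WT E2 3.12 above WT placebo. Mgl2, a lectin of macrophages and dendritic cells, was at 2.82 and 2.86 CPM against 3.49, 2.31 and 3.07 CPM (0.08, -1.30 to 1.45). The Mgl2 interval reached beyond 2-fold either way. Ptx3, a secreted pattern-recognition protein that E2 lowered in WT, was at 4.81 and 4.91 CPM against 6.14, 4.73 and 4.96 CPM (0.12, -0.38 to 0.63).

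**Figure D4:**
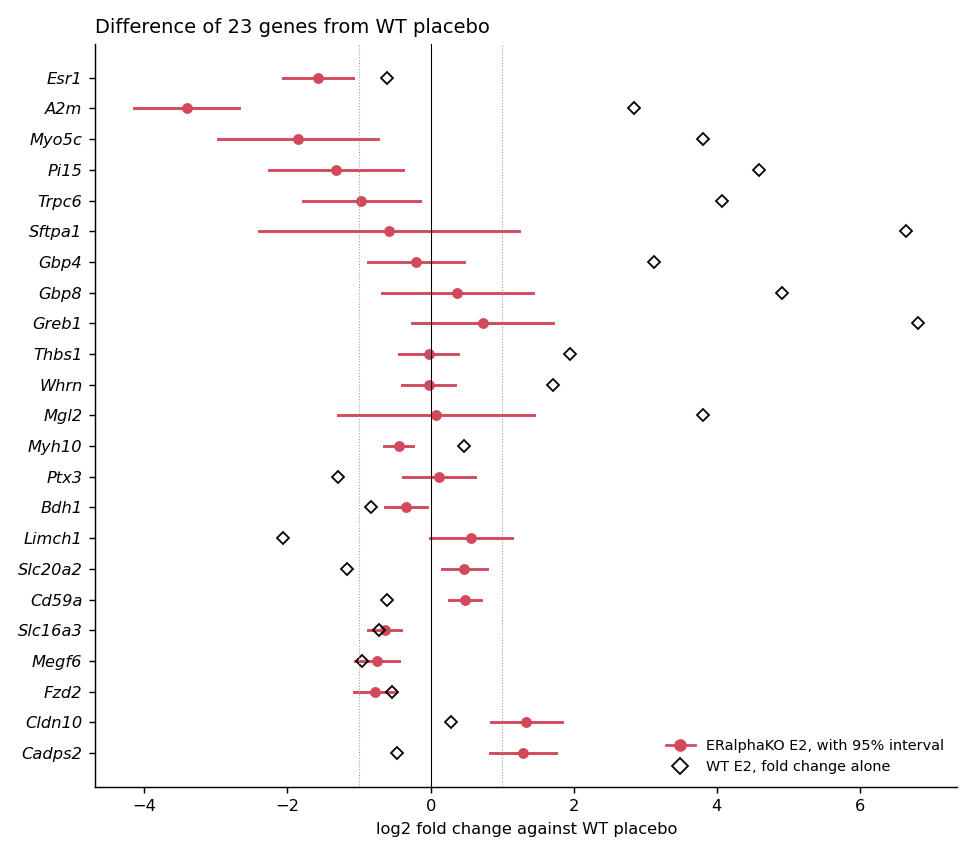
Log2 fold change against WT placebo (x axis) of 23 named genes (y axis): red points and bars are ERalphaKO E2 with its 95% interval, open diamonds WT E2. Dotted lines mark a 2-fold difference. Thbs1 and Whrn lie at -0.03 for ERalphaKO E2 and at 1.94 and 1.71 for WT E2; both comparisons share the WT placebo libraries.

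The 182 genes lower in WT E2 than in ERalphaKO placebo were mostly higher in ERalphaKO E2 than in WT placebo in the fit. Their median difference between ERalphaKO E2 and WT placebo was 0.47 on the log2 scale, with quartiles of 0.14 and 1.86, and 160 of 182 were above 0, beside 7541 of 14832 over all genes. None passed adjustment in edgeR, while DESeq2 called some, among them Rag1 (adjusted p = 0.0491) and Vpreb3 (0.00774). At an unadjusted p under 0.05, 70 (38.5%) were higher and 1 (0.549%) lower in ERalphaKO E2, beside 2.64% and 3.45% of all genes. The median in each library, again set against ERalphaKO placebo, was -0.80 and -0.72 in WT placebo and -0.14, -0.73 and -0.48 in ERalphaKO E2 replicates 1 to 3, so replicate 2 lay within the WT placebo range and the other replicates above it. WT E2 libraries were at -1.40, -1.60 and -1.34. ERalphaKO E2 was nearer to WT placebo than to WT E2 for 144 of the 182 genes, beside 7406 of 14832 over all genes. WT E2 was among the groups that chose these genes, which favours such a result. Without ERalphaKO E2 replicate 1 the set held 227 genes, with a median of 0.302 and 38 at an unadjusted p under 0.05 in either direction, beside 71 of 182. Without ERalphaKO E2 replicate 2 it held 257 genes, with a median of 0.601 and 121 at that p.

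Under the same naming conditions, 10 genes of this second group had the largest differences between WT E2 and ERalphaKO placebo. Genes known from lymphocyte development were among them. They include Rag1 and Rag2, the recombinase of antigen receptor genes, Dntt, the polymerase that adds bases at their junctions, Igll1 and Vpreb3, known from precursor B cells, and Spib, an Ets-family factor of lymphoid cells. Dntt was at 0.0587 and 0.0366 CPM in WT placebo, 1 count each, and at 22.3, 0 and 19.0 CPM in ERalphaKO E2 replicates 1 to 3. Rag1 was at 0 and 0.0733 CPM in WT placebo and at 29.3, 0 and 7.31 CPM in ERalphaKO E2. ERalphaKO E2 replicate 2 had no count of Dntt, Rag1, Rag2 or Igll1, which at its depth allows a level of up to 0.315 CPM. Spib was at 0.176 and 0.220 CPM in WT placebo and at 52.9, 0.526 and 6.18 CPM in ERalphaKO E2 (6.59 ± 2.05, edgeR adjusted p = 0.808, DESeq2 adjusted p = 0.0596). The 4 ERalphaKO placebo libraries held 11 to 107 CPM of Spib and the 3 WT E2 libraries 0.0471 to 1.08 CPM. Without ERalphaKO E2 replicate 1 its difference was 4.15. ERalphaKO E2 replicate 1 was thus within the ERalphaKO placebo range, replicate 3 below it but above all WT libraries, and replicate 2 within the WT range. Of 11 lymphocyte markers tested, 8 had an unadjusted p under 0.05 with ERalphaKO E2 higher, beside 2.64% of all genes, none passed adjustment in edgeR, and the median log2 difference was 3.48. Their mean log2 CPM was -0.86 and -1.24 in WT placebo and 2.86, -0.94 and 1.18 in ERalphaKO E2. With this mean as a covariate in the fit, the Spib difference was 0.48 and no gene passed adjustment in edgeR. The mean was 2.59 to 2.89 in ERalphaKO placebo and -1.82 to -0.83 in all WT libraries. It largely follows genotype, so that fit cannot separate lymphocytes from genotype. The part of lymphocytes in the differences of the 182 genes was not tested.

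Of the 70 genes of the second group that were higher at an unadjusted p under 0.05, 43 had every ERalphaKO E2 library above both WT placebo libraries and 27 did not, beside 342 of 392 without overlap among all genes higher at that p. Of the examples without overlap that follow, Slc20a2, Limch1 and Bdh1 were taken from the earlier report and Cd59a was chosen after its values were seen. Slc20a2, a sodium-phosphate cotransporter, was at 118 and 114 CPM in WT placebo, at 191, 145 and 147 CPM in ERalphaKO E2 and at 58.7, 47.3 and 48.9 CPM in WT E2 (0.47 ± 0.14, unadjusted p = 0.00774). Limch1, which binds non-muscle myosin, was at 163 and 143 CPM in WT placebo, at 260, 213 and 205 CPM in ERalphaKO E2 and at 49.2, 21.7 and 39.4 CPM in WT E2 (0.56, 95% interval -0.01 to 1.14). Cd59a, an inhibitor of complement, was at 34.4 and 36.3 CPM in WT placebo, at 49.3, 47.9 and 51.0 CPM in ERalphaKO E2 and at 22.9, 21.3 and 25.5 CPM in WT E2 (0.48 ± 0.10, unadjusted p = 0.000559). In these 3 genes both WT placebo libraries lay between WT E2 and all 7 ERalphaKO libraries, and none passed adjustment in edgeR, while DESeq2 called Cd59a (adjusted p = 0.0244). Klk4, a protease of the kallikrein family, was at 0.235 and 0.733 CPM in WT placebo and at 1.14, 2 and 1.43 CPM in ERalphaKO E2, with no count in WT E2. Bdh1, a mitochondrial ketone body enzyme, was the 1 gene of this group that was lower at an unadjusted p under 0.05, at 41.1 and 42.7 CPM against 32.0, 32.7 and 34.4 CPM (-0.34 ± 0.13).

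Genes with the smallest p-values, named after their values were seen, showed 2 patterns by group. In the first, all 7 ERalphaKO libraries stood apart from all 5 WT libraries. Cadps2, a factor of dense-core vesicle release, was at 6.16 and 6.37 CPM in WT placebo and at 18.1, 13.7 and 14.3 CPM in ERalphaKO E2, with 4.28 to 4.92 CPM in WT E2 and 9.65 to 15.3 CPM in ERalphaKO placebo. Its difference was 1.29 ± 0.21 (edgeR adjusted p = 0.324, DESeq2 adjusted p = 0.000115), and without ERalphaKO placebo replicate 3 the edgeR adjusted p was 0.0415. Cldn10, a tight junction claudin, was at 2.93 and 3.26 CPM in WT placebo and at 9.03, 7.78 and 6.75 CPM in ERalphaKO E2 (1.34 ± 0.23, edgeR adjusted p = 0.324, DESeq2 adjusted p = 0.000443). In WT E2 it was at 2.82 to 4.76 CPM and in ERalphaKO placebo at 5.77 to 6.58 CPM. Genotype separated both genes with and without hormone.

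In the second pattern WT placebo stood above all the other libraries. Slc16a3, an exporter of lactate, was at 83.7 and 94.8 CPM in WT placebo and at 56.7, 53.3 and 61.7 CPM in ERalphaKO E2 (-0.64 ± 0.11, edgeR adjusted p = 0.324, DESeq2 adjusted p = 0.000633), and WT E2 ran from 50.5 to 56.8 CPM and ERalphaKO placebo from 55.7 to 70.2 CPM. Megf6, a protein of epidermal growth factor-like repeats, was at 102 and 111 CPM in WT placebo and at 52.2, 73.3 and 66.1 CPM in ERalphaKO E2 (-0.74 ± 0.14, edgeR adjusted p = 0.563, DESeq2 adjusted p = 0.00444). Fzd2, a Wnt receptor, was at 17.8 and 15.1 CPM in WT placebo and at 9.88, 9.46 and 9.51 CPM in ERalphaKO E2 (-0.78 ± 0.13, edgeR adjusted p = 0.324, DESeq2 adjusted p = 0.00673). Pgam1, a glycolytic mutase, and Scarb1, the receptor of high-density lipoprotein, showed the same order with differences of -0.61 and -0.52 (DESeq2 adjusted p = 0.0185 and 0.0304). At each of these 5 genes both WT placebo libraries were above the other 10, and the pattern rests on those 2 libraries.

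List members named for an unadjusted p were chosen after their values were seen. Among the 20 pathway lists, the 1 member called in edgeR was A2m, of the 22 tested matrix proteases and inhibitors, and DESeq2 also called Esr1 and Fzd2 (adjusted p = 0.00673). Beside it the list had Mmp14, the membrane-bound collagenase, at 1658 and 1364 CPM in WT placebo and at 745, 1094 and 1040 CPM in ERalphaKO E2 (-0.66, unadjusted p = 0.0193), and a median of -0.11. Of 24 classic estrogen target genes tested, none passed, 1 was higher and 1 lower at an unadjusted p under 0.05, and the median difference was -0.07. The shares over all genes were 2.64% higher and 3.45% lower, here and for the lists that follow. The 1 that was higher was Myb, a blood progenitor factor as well as an estrogen target, at 1.58 and 0.513 CPM in WT placebo and at 42.4, 0.210 and 8.18 CPM in ERalphaKO E2. These groups overlapped, and replicates 1 and 3 were high as for the lymphocyte markers. Ctsd, the lysosomal protease cathepsin D, was at 785 and 759 CPM against 675, 644 and 692 CPM. Igf1, a growth factor, was at 111 and 137 CPM against 89.1, 76.6 and 90.0 CPM. Each pair of groups stood apart without passing adjustment in edgeR or DESeq2, while the authors' deposited table held Igf1 (adjusted p = 0.0421). The progesterone receptor gene Pgr had 2 and 4 counts in WT placebo and 1, 0 and 0 in ERalphaKO E2, at the limit of detection. Of 14 sex steroid and related nuclear receptors tested, Esr1 alone had an unadjusted p under 0.05. The glucocorticoid receptor gene Nr3c1 was at 221 and 247 CPM against 244, 203 and 253 CPM. Esr2 did not reach the count minimum of the test, and Gper1 was not analysed here. The 9 guanylate-binding protein genes tested had a median difference of -0.09, beside 1.92 for WT E2 against WT placebo, with which it shares WT placebo, and none had an unadjusted p under 0.05.

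No matrix gene in the cartilage and fibrous lists passed adjustment in edgeR or DESeq2. The authors' deposited table did hold matrix genes, among them Dcn (adjusted p = 0.0221). For the counts at an unadjusted p under 0.05 in these and the marker lists, the shares over all genes were 2.64% higher and 3.45% lower, and 7289 of 14832 genes were below 0. Of 17 cartilage matrix and chondrocyte genes tested, 16 were below 0 with a median of -0.49, and 1 was lower at an unadjusted p under 0.05. Their mean log2 CPM was 7.974 and 8.686 in WT placebo and 7.182, 7.997 and 7.555 in ERalphaKO E2, so the groups overlapped and WT placebo replicate 2 was highest. The 1 gene was Col2a1, the main collagen of cartilage, at 3695 and 7146 CPM in WT placebo and at 1156, 2568 and 1647 CPM in ERalphaKO E2 (-1.60, unadjusted p = 0.0179). All ERalphaKO E2 libraries lay below both WT placebo libraries, which themselves differed widely. Sox9, the chondrocyte transcription factor, was at 94.9 and 123 CPM against 63.5, 93.2 and 71.0 CPM (-0.52, 95% interval -1.36 to 0.31). Of 24 fibrous matrix genes tested, 21 were below 0 with a median of -0.25, and 3 were lower and 1 higher at an unadjusted p under 0.05. Col6a2, a chain of the pericellular collagen, was at 4551 and 4178 CPM against 1600, 3220 and 3015 CPM (-0.74), and Dcn, the small proteoglycan decorin, at 2984 and 2646 CPM against 3503, 3453 and 3506 CPM (0.31). Col1a1 and Col1a2 had differences of -0.03 and 0.05. Of 26 Wnt genes tested, 5 were lower at an unadjusted p under 0.05 and none higher: the receptor Fzd2, the ligand Wnt11 and the antagonists Frzb, Dkk1 and Sost. Frzb was at 25.6 and 29.3 CPM in WT placebo and at 13.6, 19.1 and 17.1 CPM in ERalphaKO E2 (-0.73), and Dkk1 at 76.6 and 42.1 CPM against 36.0, 49.0 and 37.8 CPM (-0.54). The groups of Dkk1 overlapped. Of 11 hedgehog and parathyroid hormone-related genes tested, Hhip, a hedgehog antagonist, was at 87.6 and 59.1 CPM against 34.6, 61.5 and 28.0 CPM (-0.84), and its groups overlapped as well.

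The remaining pathway lists had medians between -0.30 and 0.16 and no call. The 31 genes of transforming growth factor beta and bone morphogenetic protein signalling had a median of 0.09, and Nog, a bone morphogenetic protein antagonist, was at 5.16 and 6.01 CPM in WT placebo and at 9.88, 9.15 and 8.43 CPM in ERalphaKO E2 (0.71, unadjusted p = 0.00179). The 25 cell cycle genes had a median of -0.04, with Mki67, a marker of dividing cells, at 82.2 and 76.3 CPM against 87.3, 60.2 and 103 CPM. The 23 immediate-early and dissection stress genes had a median of -0.30, and Fos, an immediate-early factor, was at 45.9 and 358 CPM in WT placebo and at 45.7, 43.9 and 32.2 CPM in ERalphaKO E2, so of these 5 libraries WT placebo replicate 2 alone was high. The 18 circadian clock genes had a median of 0.12, with Nr1d1, a clock repressor, at 516 and 551 CPM against 244, 668 and 398 CPM. These groups overlapped.

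**Figure D5:**
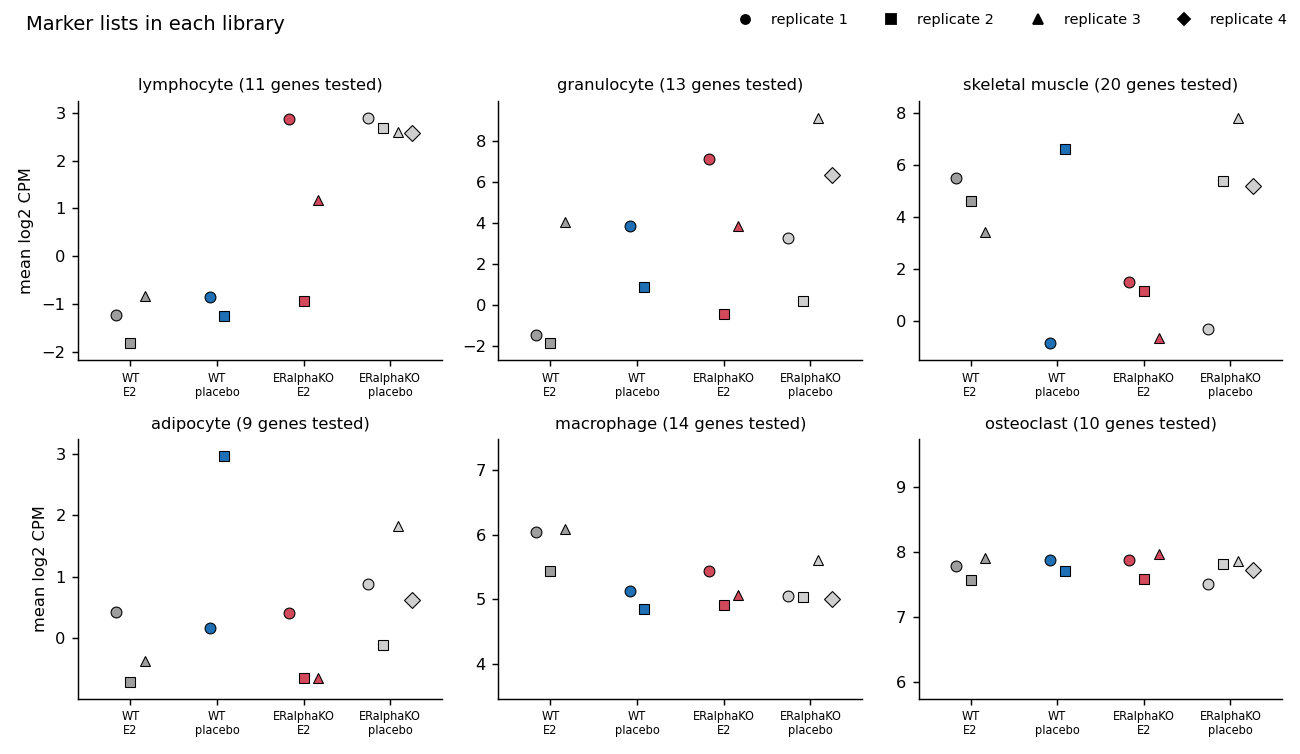
Mean log2 CPM (y axis) of 6 marker lists in each of the 12 libraries by group (x axis), with point shapes for replicate numbers; each panel has its own range. WT placebo replicate 2 is at 6.59 for skeletal muscle and replicate 1 at -0.86, and ERalphaKO E2 replicate 1 is at 2.86 for lymphocyte markers beside -0.94 in replicate 2.

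Markers of other cell types were uneven among libraries of 1 group. Of 20 skeletal muscle markers tested, 18 were lower in ERalphaKO E2 at an unadjusted p under 0.05 with a median of -5.20, yet their mean log2 CPM was -0.86 and 6.59 in WT placebo replicates 1 and 2 and 1.52, 1.17 and -0.65 in ERalphaKO E2. Acta1, skeletal muscle actin, was at 0.587 and 668 CPM in WT placebo and at 11.1, 11 and 1.38 CPM in ERalphaKO E2, so WT placebo replicate 1 lay below every ERalphaKO E2 library. Without WT placebo replicate 2 the Acta1 difference was 3.69 in place of -5.45. Of 9 adipocyte markers tested, 4 were lower at an unadjusted p under 0.05, and their mean log2 CPM was 0.17 and 2.96 in WT placebo and 0.42, -0.64 and -0.65 in ERalphaKO E2. The 13 granulocyte markers were all above 0 with a median of 2.75 and none at an unadjusted p under 0.05. Osteoclast markers were even, with a median of -0.02 over 10 genes: Acp5, the osteoclast phosphatase, was at 3507 and 3103 CPM against 3546, 2640 and 3563 CPM. Endothelial and macrophage markers had medians of 0.14 and 0.08. Over 14 markers of osteoblasts and osteocytes the median was 0.05, with 2 higher and 2 lower at an unadjusted p under 0.05. Sost and Fgf23, a hormone of osteocytes near the limit of detection here, were the lower ones, and Ifitm5, a membrane protein of osteoblasts, was higher (0.31). Bglap, or osteocalcin, was at 723 and 568 CPM in WT placebo and at 960, 909 and 822 CPM in ERalphaKO E2 (0.48, unadjusted p = 0.0199).

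The authors' deposited table for the same 2 groups held 77 genes at an adjusted p under 0.05, 0.563% of 13665 with a value, 32 (0.234%) higher and 45 (0.329%) lower in ERalphaKO E2. In the authors' deposited table A2m had a log2 fold change of -3.05 (adjusted p = 2.13e-14) and Esr1 one of -1.51 (adjusted p = 2.02e-07). The deposited table also held matrix genes in both directions. Among them, Aspn (0.59), Dcn (0.31) and Mgp (0.36) were higher and Thbs2 (-0.45) and Hspg2 (-0.54) lower on its log2 scale. The following examples from its 15 genes with the smallest adjusted p were chosen after their values were seen. Igj, the joining chain of secreted antibodies, was at 36.5 and 16.2 CPM in WT placebo and at 143, 135 and 120 CPM in ERalphaKO E2. It was also at 13.9 to 69.0 CPM in WT E2 and at 65.6 to 173 CPM in ERalphaKO placebo (2.34 ± 0.66 for the main comparison, edgeR adjusted p = 0.808). Igj was high in ERalphaKO E2 replicate 2 as well, unlike the precursor B cell genes. Crabp1, which binds retinoic acid in the cytoplasm, was at 10.2 and 11.4 CPM in WT placebo and at 2.23, 2.94 and 3.22 CPM in ERalphaKO E2 (-1.95 ± 0.49, edgeR adjusted p = 0.808). Casr, the calcium-sensing receptor, was at 16.0 and 19.7 CPM against 46.3, 35.2 and 49.4 CPM (1.29 ± 0.37). Clu, the secreted chaperone clusterin, was at 168 and 126 CPM against 265, 297 and 284 CPM, and WT E2 was at 232 to 440 CPM, so Clu was lowest in WT placebo. Jph2, a muscle membrane protein, was at 17.8 and 21.7 CPM against 8.19, 8.94 and 9.61 CPM. In all of these genes the groups did not overlap, and Igj, Crabp1, Casr, Clu and Jph2 each had an edgeR adjusted p of 0.808. The part of the skeletal muscle markers in Jph2, whose ERalphaKO placebo replicate 3 held 32.7 CPM, was not tested.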

How the data were processed

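Polyadenylated RNA of whole condylar fibrocartilage was sequenced in 12 libraries. The submitters' processing notes name bcl2fastq 2.17, TopHat and the mm9 build. No source used here names the counting tool, the annotation or the strand setting, and overlapping or antisense genes cannot be told apart. The authors deposited raw counts per gene symbol, which were the only expression values used. The authors' deposited table of this comparison holds log2 fold changes and p-values.

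Groups were taken from the sample titles. Genes were kept by filterByExpr of edgeR 4.0.16 under R 4.3.3 (minimum count 10), scaled by TMM, and fitted with the quasi-likelihood model over all 12 libraries with 1 term a group, which leaves 8 residual degrees of freedom. P-values were two-sided and adjusted by Benjamini-Hochberg over 14832 genes, with a threshold of 0.05. Errors are SE of log2 fold changes, intervals are 95%, and CPM compares 1 gene between libraries, not genes with each other. The script was tested on simulated data.

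The compared groups, the 32 gene lists and the tests were chosen with earlier results of these data known. Genes were named by this rule: Esr1 and the 5 nearest tested genes on each side; up to 15 called genes in each direction; 10 genes in each direction with the largest change between WT E2 and ERalphaKO placebo, of those with a mean level of 1 CPM or more; and called or, failing those, highly expressed list members. For the called genes and the 10 genes in each direction, the libraries of the 2 groups could not overlap. Predicted genes were left out of both. Other genes came from an earlier report of these libraries or were chosen after their values were seen, as said beside them. Alternatives were DESeq2 1.42.0, its size factors, no filter, only the 5 libraries, a replicate block, marker covariates and leaving out each library. The lymphocyte covariate was added after seeing the data.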

Additional observations from a re-analysis of the deposited data

Results flagged for a closer look

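In the 4 ERalphaKO placebo libraries, the only group large enough for this check, 21 named genes were examined. Of these, 3 had a library far from the others. Chance gives about 1 in 20 groups for normally distributed values, which does not cover a gene counted in 1 library alone, as Hcn4 was. Most of these genes were also chosen with these libraries, so that rate cannot be set against the 3. A2m was at 0.852 CPM in replicate 3 beside 1.86 to 2.03 CPM in the others. Hcn4 was at 0.0804 CPM in replicate 4 and had no count in the others. Rag2 was at 10.7 CPM in replicate 2 beside 5.77 to 6.6 CPM in the others. None of these libraries is among the 5 compared, though they enter the estimate of spread.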

How the results depend on the processing

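A2m and Esr1 kept their direction under every alternative run. Values that had not passed the test could change sign, such as Acta1 and the median of the genes higher in WT E2 than in ERalphaKO placebo. DESeq2, which tested 16776 genes, called 14 genes higher and 10 lower, beside 0 (392 at an unadjusted p under 0.05) and 1 in edgeR. The count of lower genes was 0 with only the 5 libraries (581 at an unadjusted p under 0.05), with the replicate block (371) and with the lymphocyte covariate (292). Leaving out single libraries gave 0 to 1 genes higher (Cadps2, without ERalphaKO placebo replicate 3) and 0 to 1 lower. The median of the genes higher in WT E2 than in ERalphaKO placebo was -0.105 with the skeletal muscle covariate, -1.503 over the 3 genes left with the lymphocyte covariate, and -0.108 to 0.002 with single libraries left out. The median of the genes lower stayed above 0, at 0.302 to 0.610 with single libraries left out; the lymphocyte covariate left no gene in that set and so gave no value. Replicate numbers are not stated to pair libraries. Same-numbered libraries of the 2 compared groups had correlations of 0.203 and 0.327, from 2 pairs. Differently numbered libraries of these groups ran from -0.327 to 0.244. With 2 WT placebo libraries each value recurs with the opposite sign, so these correlations cannot show a pairing. With the replicate block A2m had an edgeR adjusted p of 0.166, and the medians were -0.063 and 0.315. With 2 WT placebo libraries, and 9696434 counts in the smallest library, genes of low level have wide intervals.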
